A study of Mus musculus with 8 samples.

Results

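Interferon-stimulated genes were followed in the 2 populations of colon fibroblasts. The list named 34 genes, of which 33 were measured, among 30712 genes that the array annotation names singly; a row of the deposited table belonged to a member when its annotation named that gene alone, and a gene with several rows was represented by the one with the highest mean over the 8 arrays. Ifi44 had no such row, and Irf1 was the one member with several. All samples were RNA of sorted cells from the colon of wild-type C57BL/6J mice, negative for Epcam (epithelium), CD45 (leukocytes) and CD31 (endothelium) and positive for gp38, which is podoplanin. They were split by CD90, the product of Thy1, into a CD90-negative and a CD90-positive population of 4 samples each. The cells came from 4 mice, no age or sex is labelled, and which mouse gave which sample is unlabelled; the p-values therefore reflect only how far these samples differ among themselves. Sample numbers are those in the titles, 13, 15, 17 and 19 for CD90-negative and 14, 16, 18 and 20 for CD90-positive cells. Levels are deposited log2 values, as mean ± SD over the 4 samples of a population, and a difference is CD90-positive minus CD90-negative.

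Type I interferons bind a receptor made of IFNAR1 and IFNAR2, whose kinases JAK1 and TYK2 activate transcription factors. STAT2 and IRF9 are subunits of the factor ISGF3, which binds interferon-stimulated response elements in promoters, and IRF1 is among the factors induced by interferon gamma. The induced genes code for sensors of viral RNA, enzymes that degrade RNA or block translation, and GTPases that attack pathogens, and in the absence of infection many are held at a low tonic level. In the gut, stromal cells lie beneath an epithelium that is exposed to microbes, and fibroblasts carry receptors for both interferon types.

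Promoters of the members often held the core of that response element. The core motif was GAAA followed after any 2 bases by another GAAA. This motif was searched on both strands in the 250 bases before each start site given for a gene (RefSeq, GRCm38.p6), with overlapping matches counted. It was found in 9 of the 22 tested members that have a promoter in this table (40.9%), against 3.07% of the 10382 tested genes that have one. Usp18, Mx2, Zbp1, Rtp4, Parp9 and Parp14 were the tested members without a promoter there. A member with several start sites counted as holding the motif when any of them did. The motif stood in 2 of 5 members called lower in CD90-positive cells, in 7 of 14 not called and in 0 of 3 called higher. A match is a description of the letters and not a measured binding site. The guanylate-binding protein genes Gbp7 and Gbp3, which were the called members with a match, are shown first. Another start site given for Gbp3 held no match and is not shown. Gbp2, Isg15, Ifit1 and Ifit3 follow as members with a match that were not called, chosen after their values were seen. Capitals mark the motif in each stretch, which reads as TTTC in place of GAAA where it lies on the opposite strand; each stretch is written 5′ to 3′ on the gene's strand and ending before the start site.
Gbp7, chr3:142530243-142530332, plus strand: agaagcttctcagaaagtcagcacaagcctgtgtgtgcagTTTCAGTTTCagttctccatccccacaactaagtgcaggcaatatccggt
Gbp3, chr3:142559959-142560043, plus strand: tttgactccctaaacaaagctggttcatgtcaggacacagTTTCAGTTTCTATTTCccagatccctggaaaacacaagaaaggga
Gbp2, chr3:142620564-142620653, plus strand: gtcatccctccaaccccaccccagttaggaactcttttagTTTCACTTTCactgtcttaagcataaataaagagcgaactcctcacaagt
Isg15, chr4:156200835-156200936, minus strand: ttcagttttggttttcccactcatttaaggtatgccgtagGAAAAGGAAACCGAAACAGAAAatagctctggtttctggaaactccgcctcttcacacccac
Ifit1, chr19:34640745-34640853, plus strand: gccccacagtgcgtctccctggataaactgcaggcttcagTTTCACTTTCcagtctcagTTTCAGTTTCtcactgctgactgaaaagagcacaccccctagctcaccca
Ifit3, chr19:34583333-34583456, plus strand: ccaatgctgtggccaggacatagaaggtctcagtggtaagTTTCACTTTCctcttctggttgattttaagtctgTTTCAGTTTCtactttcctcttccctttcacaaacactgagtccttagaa

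The first motif base nearest to the start site lay 53 bases before it in Gbp7, 39 in Gbp3, 59 in Gbp2, 66 in Isg15, 85 in Ifit1 and 122 in Ifit3. In Gbp3 and Isg15 copies overlapped, 2 in Gbp3 and 3 in Isg15, and in Ifit1 and Ifit3 there were 2 separate ones.

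Thy1 was between 5.46 and 5.57 in CD90-negative and between 7.03 and 8.11 in CD90-positive samples, and podoplanin (Pdpn) between 13.0 and 13.54 in all 8. Samples 13 and 14 stood apart from the rest in sex-linked genes: Xist reached 16.16 and 16.27 there, and elsewhere its values ran from 5.89 to 9.33. Uty, of the Y chromosome, was at 5.5 and 5.6 there and between 9.65 and 10.06 elsewhere. By these genes samples 13 and 14 read as female and the others as male, although no sex is labelled. The member and pathway counts over all lists are therefore also given without samples 13 and 14. Without Thy1, which was part of the sort, the mean over 7 fibroblast markers overlapped, between 15.06 and 15.31 in CD90-negative and between 15.25 and 15.41 in CD90-positive samples; Dcn and Lum were called higher, Col1a2 lower and 4 were not called. Other cell types moved with the split. All 7 tested glial markers were called higher, with a list mean of 5.44 to 5.81 against 7.14 to 8.35. Of 14 leukocyte markers 11 lay below the negative control rows in every sample, Ptprc (CD45), Cd3e and Cd79a among them. Cd68, Cx3cr1, Cd3e and Cd79a were called higher, of which only Cd68 had both means above those rows, and the list mean was 5.32 to 5.51 against 5.54 to 5.87. Epithelial markers (0 of 9 tested called) overlapped between the populations, with list means of 7.86 to 9.92 against 8.29 to 9.91. Epcam was at 7.21 to 9.19 against 7.47 to 9.4, above the negative control rows in all 8 samples although the sort was for Epcam-negative cells. The 3 brightest epithelial genes varied widely over the 8 samples, Car1 from 10.6 to 14.51, Muc2 from 10.8 to 14.26 and Krt8 from 9.34 to 12.62. Endothelial markers (1 of 4 tested called, Tek, higher) overlapped too, at 5.51 to 6.18 against 5.81 to 6.48. Pecam1 (CD31) was at 5.84 to 6.66 against 5.86 to 7.01, with both means below those rows. Further list means that did not overlap were those of pericytes (8.08 to 8.46 against 7.04 to 7.34; 2 of 5 tested markers called higher and 3 lower), interstitial cells of Cajal (8.28 to 10.97 against 6.59 to 7.69; 1 of 2 lower), mesothelium (4.74 to 4.82 against 5.39 to 5.99; 2 of 2 higher) and lymphatic endothelium (5.94 to 6.09 against 5.28 to 5.55; 2 of 2 lower). Smooth muscle markers overlapped in their mean (9.8 to 10.62 against 9.75 to 11.25; 3 of 6 higher and 2 lower). The mean of the plasmacytoid dendritic cell list, which shares Bst2 with the members, was 9.42 to 9.64 against 8.86 to 9.19 (0 of 5 tested markers higher and 1 lower). Its shift came mostly from the gene called lower, Tcf4, at 15.35 ± 0.17 and 12.62 ± 0.1. Bst2, Irf8, Klk1 and Siglech were not called, with differences from -0.31 to 0.02. Siglech and Ccr9 lay below the negative control rows in all samples. Beside the counts of these lists, 14.0% of all tested genes were called higher and 15.7% lower. In bulk RNA a change in the share of a cell type and a change per cell cannot be told apart, and the part of these cells in the results below was not tested.

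Interferon-stimulated genes did not move as 1 block. Of 28 tested members, 4 were called higher in CD90-positive cells (Mx2, Irf7, Irf9 and Ifih1) and 6 lower (Ifit2, Usp18, Ddx58, Gbp7, Gbp3 and Ifi35), by limma with an adjusted p under 0.05 over all genes. That is 14.3% higher and 21.4% lower, beside 14.0% higher and 15.7% lower among the 17208 genes tested. The populations did not overlap in 4 members that were higher (14.3%) and 7 that were lower (25%), where the shares over all tested genes were 14.9% and 17.3%. A called difference of at least 1 was found in 2 of 28 members (7.14%), Ifit2 and Usp18, against 7.21% of all genes. The median difference was -0.11 over the tested members and -0.01 over all genes, and the median size without sign was 0.28 against 0.18. The higher shares lay near those of the whole table and the lower ones somewhat above, a difference that was not tested. With the filter raised to the negative control rows, 15.4% of 26 members were called higher and 23.1% lower. The shares of all genes in that fit were 16.5% and 20.1%, so the lower shares lay closer together. Without samples 13 and 14 the calls were 4 higher and 8 lower (14.3% and 28.6%, beside 14.5% and 17.1% of all genes in that fit), and all 10 members named were again called.

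**Figure D1:**
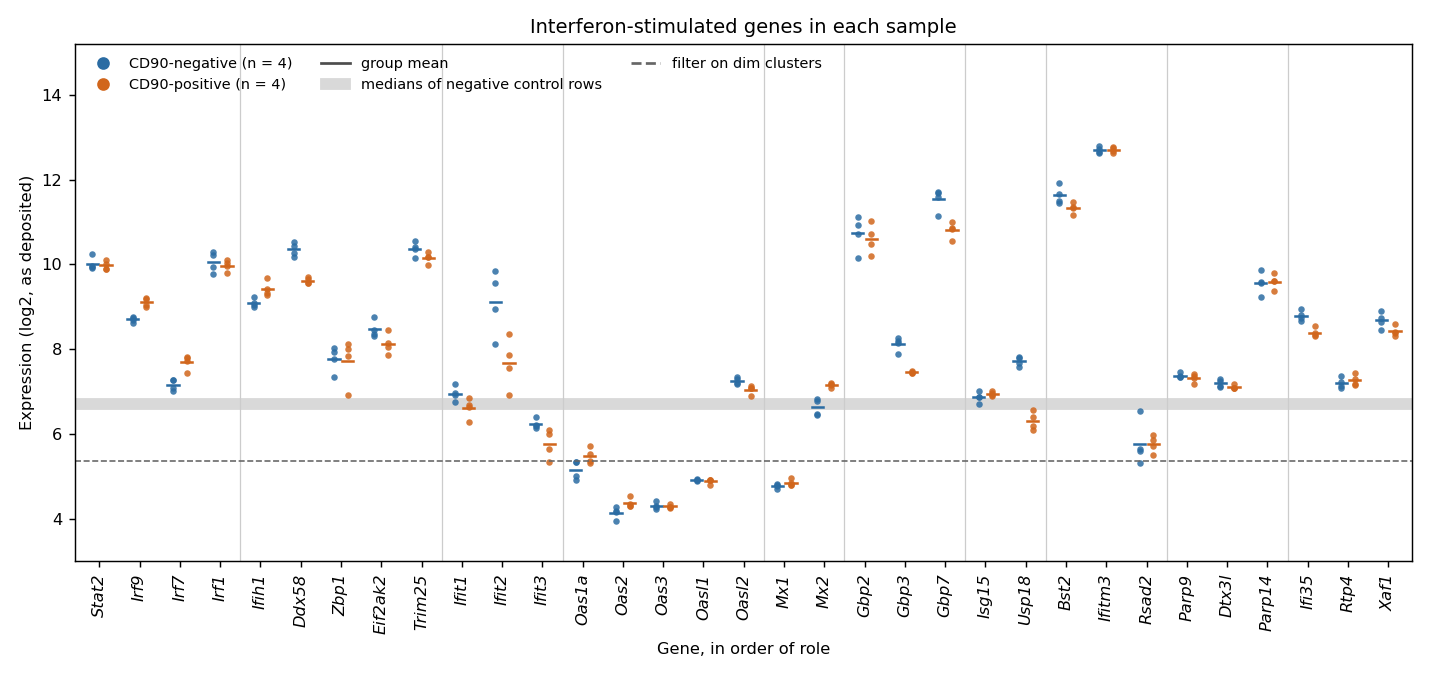
Deposited log2 expression (vertical axis) of the 33 measured genes in order of role; each point is 1 sample, bars are group means, blue is CD90-negative and orange CD90-positive (4 samples each). The grey band spans the samples' medians of the negative control rows and the dashed line is the filter on dim clusters at 5.36; Oas1a, Oas2, Oas3, Oasl1 and Mx1 lie around or under it and were not tested.

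A member was tested when its cluster reached 5.36, the median of all clusters, in at least 4 of the 8 samples. Every tested member reached it in at least 7 samples and every untested one in at most 3, so no tested member passed through 1 population alone. What the array's negative control rows give is a stricter mark, taken for each population. Their medians did not overlap, at 6.79 to 6.84 in CD90-negative and 6.58 to 6.67 in CD90-positive samples. How far this offset enters the differences of dim members was not tested. Both means lay above it in 23 tested members and below it in Ifit3 and Rsad2, and 1 mean lay below it in Ifit1, Mx2 and Usp18. Differences of genes below that mark are not exact in size.

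The factors that carry the interferon signal to the genome were called higher or not called. Irf9, the DNA-binding subunit of ISGF3, was at 8.62, 8.74, 8.69 and 8.75 in CD90-negative and at 8.99, 9.18, 9.04 and 9.2 in CD90-positive samples. All CD90-positive samples lay above all CD90-negative ones, and Irf9 rose by 0.4 (SE 0.07, limma adjusted p = 0.00284). Irf7, which amplifies type I interferon production, was at 7.27, 7.01, 7.28 and 7.09 against 7.43, 7.78, 7.73 and 7.82. The populations did not overlap, although sample 14 stood close to the CD90-negative samples, and Irf7 rose by 0.53 (95% interval 0.29 to 0.77, limma adjusted p = 0.00569). Stat2, the transactivating subunit of ISGF3, was at 10.01 ± 0.15 and 9.97 ± 0.1, with an interval of the difference from -0.25 to 0.17 (limma adjusted p = 0.806).

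Irf1, a factor induced by interferon gamma, gave different answers in its 2 clusters. The brighter one was at 10.06 ± 0.24 and 9.97 ± 0.13 and was not called (limma adjusted p = 0.669). The dimmer one was at 7.48, 7, 7.33 and 7.29 in CD90-negative and at 6.44, 6.03, 6.57 and 6.38 in CD90-positive samples, a difference of -0.92 with no overlap. Averaging both clusters gave -0.5 and a call (limma adjusted p = 0.00951). No direction is given for Irf1 for that reason.

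Cytosolic sensors of viral RNA went in opposite directions. Ddx58 codes for RIG-I, which recognises short double-stranded RNA with a triphosphate end, and Ifih1 for MDA5, which recognises long double-stranded RNA. Ddx58 was at 10.18, 10.54, 10.27 and 10.44 in CD90-negative and at 9.56, 9.69, 9.56 and 9.65 in CD90-positive samples. Every CD90-positive sample was below every CD90-negative one, and the gene fell by 0.74 (SE 0.09, limma adjusted p = 0.000342). Ifih1 was at 9.22, 9.05, 8.99 and 9.09 against 9.68, 9.28, 9.41 and 9.32, and rose by 0.33 (95% interval 0.11 to 0.56, limma adjusted p = 0.033). The populations were separated by a narrow margin between samples 13 and 16, and Ifih1 lost its call when sample 15, 17, 18 or 19 was removed (highest limma adjusted p 0.0868).

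The other nucleic acid sensors were not called. Eif2ak2, coding for the RNA-activated kinase PKR that blocks translation, was at 8.47 ± 0.2 and 8.12 ± 0.24 (limma adjusted p = 0.0965), and passed the test with array weights, without sample 14 and without samples 13 and 14. Trim25, a ubiquitin ligase that acts on RIG-I, was at 10.37 ± 0.17 and 10.16 ± 0.13 (limma adjusted p = 0.157, and 0.0317 with consecutive sample numbers as a block, a pairing that the labels do not give). Zbp1, a sensor of left-handed nucleic acids that can trigger necroptosis, was at 7.77 ± 0.31 and 7.72 ± 0.55. Its lowest values were 7.33 in sample 13 and 6.92 in sample 14, while the other 6 samples lay between 7.77 and 8.12, so that the spread followed samples rather than populations.

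The IFIT genes, which lie close together on chromosome 19 and code for proteins that bind viral RNA ends, all had lower means in CD90-positive cells, but only Ifit2 was called. Ifit2 was at 9.56, 9.85, 8.13 and 8.94 in CD90-negative and at 8.36, 7.86, 6.91 and 7.55 in CD90-positive samples. The populations overlapped, since sample 14 lay above sample 17, and within each population the values spanned more than 1 log2 unit. Ifit2 fell by 1.45 (95% interval -2.39 to -0.52, limma adjusted p = 0.0278), and lost its call when sample 13, 15, 16, 18, 19 or 20 was left out (highest limma adjusted p 0.0709). Ifit3 was at 6.41, 6.2, 6.21 and 6.15 against 6.08, 5.65, 5.99 and 5.34, without overlap but below the negative control rows (limma adjusted p = 0.0517, and 0.022 with that block). It was called in 6 of its 16 alternatives, among them without sample 14, without sample 18 and without both 13 and 14, the lowest limma adjusted p being 0.0208 with array weights. Ifit1 was at 6.95 ± 0.18 and 6.62 ± 0.24 (limma adjusted p = 0.0947). IFIT genes are close copies of each other, and how far probes of 1 member bind the others was not tested.

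Oligoadenylate synthetases make the messenger that activates RNase L, and most of them were too dim to test. Oas1a was between 4.92 and 5.34 in CD90-negative and between 5.31 and 5.71 in CD90-positive samples. Oas2, Oas3 and Oasl1 were between 3.94 and 4.93 in all 8 samples. These values lay below the negative control rows, which does not show that the transcripts were absent. Oasl2, a member of the same family, was at 7.33, 7.21, 7.19 and 7.29 against 7.13, 6.89, 7.09 and 7.08. Its populations did not overlap, but the difference of -0.21 missed the threshold (limma adjusted p = 0.0653).

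The dynamin-like GTPases of the Mx family trap viral nucleocapsids, and laboratory strains such as C57BL/6 carry a defective Mx1. Mx1 was not tested, with 4.78 ± 0.05 and 4.84 ± 0.08. Mx2 was at 6.82, 6.44, 6.77 and 6.46 in CD90-negative and at 7.15, 7.2, 7.17 and 7.09 in CD90-positive samples. All CD90-positive samples were above all CD90-negative ones and close to each other, and Mx2 rose by 0.53 (SE 0.1, limma adjusted p = 0.00395), from a CD90-negative mean below the negative control rows.

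Guanylate-binding proteins are GTPases, induced above all by interferon gamma, that coat pathogen vacuoles and bacteria. Gbp7 and Gbp3, which are direct neighbours on chromosome 3 and whose promoters are printed above, were both lower in CD90-positive cells. Gbp7 was at 11.15, 11.71, 11.59 and 11.69 against 10.55, 11, 10.87 and 10.83, and fell by 0.73 (SE 0.14, limma adjusted p = 0.00548). Gbp3 was at 7.9, 8.2, 8.27 and 8.15 against 7.49, 7.45, 7.45 and 7.45, and fell by 0.67 (SE 0.08, limma adjusted p = 0.000453). In both genes the populations did not overlap, and samples 13 and 14 had the lowest Gbp7 value of their own population. Gbp2, from the same gene cluster, was not called, with 10.74 ± 0.42 and 10.6 ± 0.35 and an interval of the difference from -0.67 to 0.4 (limma adjusted p = 0.715). Samples 13 and 14 were its lowest, at 10.16 and 10.2, and the other samples lay between 10.47 and 11.13.

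**Figure D2:**
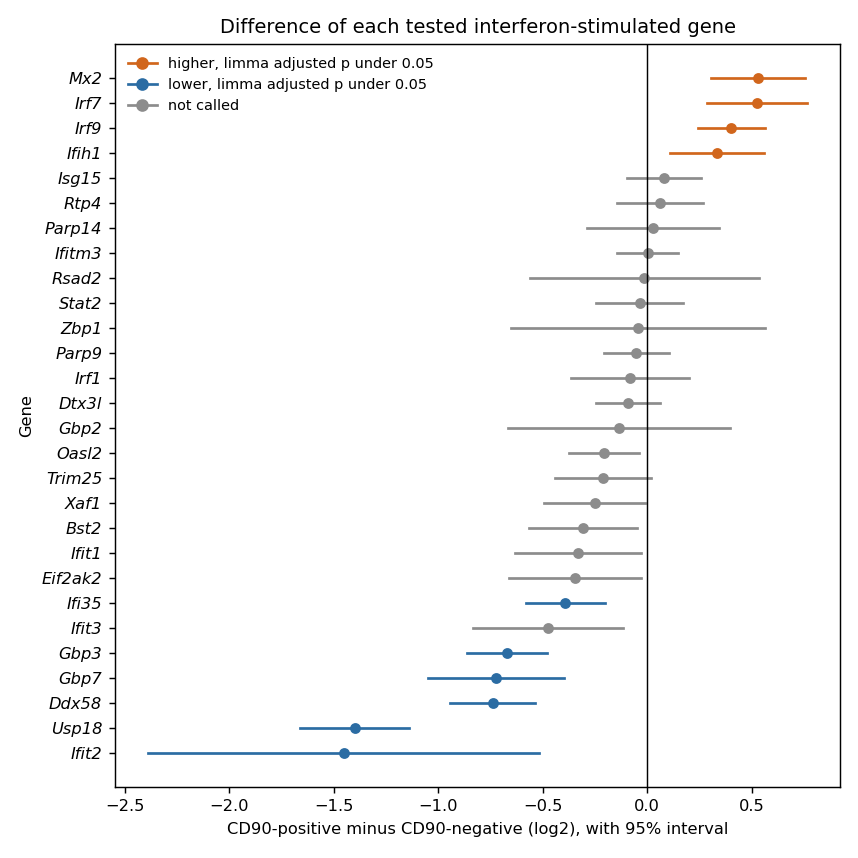
Difference of each of the 28 tested genes, CD90-positive minus CD90-negative (horizontal axis, log2); points are fitted differences and lines their 95% intervals from limma, without adjustment for the number of genes. The 4 genes called higher run from 0.33 (Ifih1) to 0.53 (Mx2), the 6 called lower from -0.39 (Ifi35) to -1.45 (Ifit2), and Ifit2 has the widest interval.

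The ISG15 system held the member with the smallest p-value. Isg15 codes for a ubiquitin-like modifier, and Usp18 for the protease that removes it from proteins and that also blocks the receptor subunit IFNAR2. Usp18 was at 7.8, 7.81, 7.57 and 7.68 in CD90-negative and at 6.57, 6.09, 6.19 and 6.4 in CD90-positive samples. A gap of 1 log2 unit separated the populations, and Usp18 fell by 1.4, which is 2.64-fold on the deposited scale (SE 0.11, limma adjusted p = 3.31e-05). The CD90-positive mean lay below the negative control rows. It kept its call in all 17 alternatives, with differences from -1.49 to -1.33. Isg15 itself was at 6.87 ± 0.13 and 6.95 ± 0.06, near the negative control rows, and the interval of its difference ran from -0.1 to 0.26 (limma adjusted p = 0.493).

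Membrane proteins that restrict virus entry and release were not called. Ifitm3, which hinders fusion of viruses in endosomes, was bright and even, between 12.63 and 12.79 in all 8 samples, with an interval of the difference from -0.14 to 0.15 (limma adjusted p = 0.988). Bst2, the tetherin that holds budding virions at the cell surface, was at 11.92, 11.46, 11.65 and 11.5 against 11.46, 11.35, 11.16 and 11.32. The populations met between samples 15 and 14, and the difference was -0.31 (limma adjusted p = 0.0728, and 0.0419 with the block of consecutive numbers). Rsad2, coding for viperin, reached 6.53 in sample 13, while the remaining values ran from 5.32 to 5.97, below the negative control rows throughout (limma adjusted p = 0.974).

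Parp9, Dtx3l and Parp14 lie next to each other on chromosome 16. PARP9 and DTX3L form a complex that joins ADP-ribose to ubiquitin signalling, and PARP14 transfers ADP-ribose. Parp9 was at 7.37 ± 0.05 and 7.32 ± 0.1, Dtx3l at 7.2 ± 0.1 and 7.11 ± 0.04, and Parp14 at 9.57 ± 0.26 and 9.6 ± 0.17. None was called, with limma adjusted p between 0.348 and 0.906, and the widest interval of a difference, that of Parp14, ran from -0.29 to 0.34.

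Of the other members, Ifi35 was lower in CD90-positive cells. Ifi35, whose protein pairs with NMI, was at 8.66, 8.73, 8.8 and 8.94 against 8.31, 8.54, 8.34 and 8.38. The populations did not overlap, and Ifi35 fell by 0.39 (SE 0.08, limma adjusted p = 0.00758). Xaf1, an antagonist of the apoptosis inhibitor XIAP, was at 8.68 ± 0.19 and 8.43 ± 0.12 (limma adjusted p = 0.11, and 0.0488 with the block), and Rtp4, a receptor chaperone with antiviral action, at 7.21 ± 0.12 and 7.27 ± 0.13 (limma adjusted p = 0.659).

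**Figure D3:**
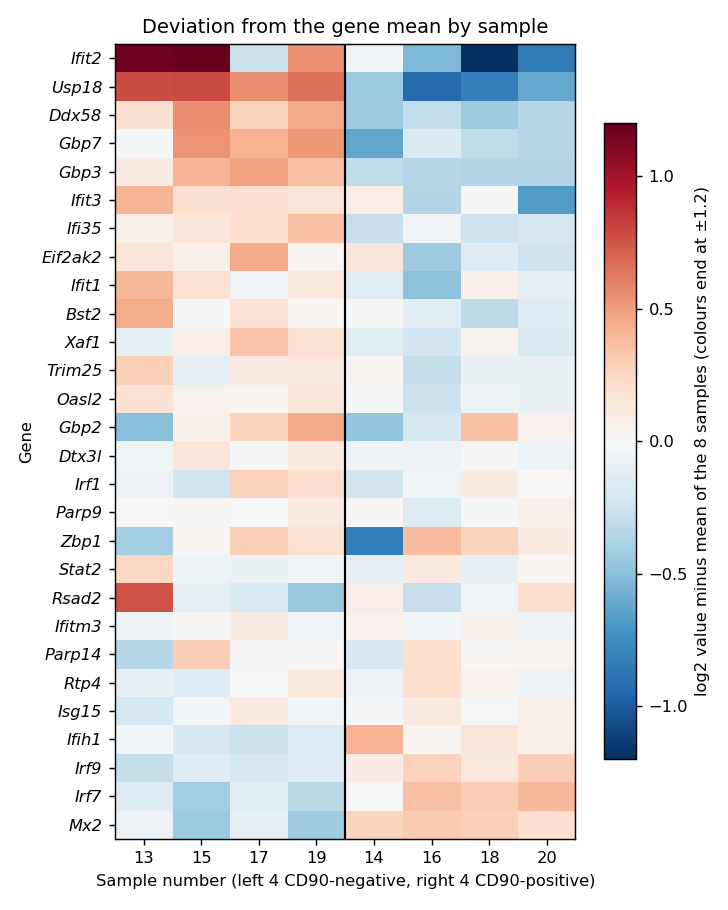
Deviation of each sample from the gene's mean over the 8 samples (colour, log2 units, colours end at ±1.2) for the 28 tested genes, sorted by difference; columns are samples, the left 4 CD90-negative and the right 4 CD90-positive. Usp18 and Ddx58 change colour between the populations, Zbp1 and Gbp2 are lowest in samples 13 and 14, and Ifit2 is highest in samples 13 and 15.

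Across samples the members did not share 1 pattern. The median level over the 28 tested members was 8.45, 8.49, 8.48 and 8.53 in CD90-negative and 8.33, 7.99, 8.08 and 7.94 in CD90-positive samples, while the median of all tested genes stayed between 7.88 and 7.95. That median depends on which genes fall in the middle: the median deviation from each gene's own mean overlapped, at -0.01, 0.04, 0.1 and 0.13 in CD90-negative and -0.05, -0.15, -0.0013 and -0.07 in CD90-positive samples. Of the 28 differences 8 were above 0, while 47.7% of those of all tested genes were. Sample 13 was above the mean of the other CD90-negative samples in 12 of 28 members and sample 14 above that of the other CD90-positive samples in 13, so neither had raised or lowered values across the list. In 9 members both were above.

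The upstream genes of the pathway, from lists chosen with earlier results of these data known, are given next. Of 8 tested receptor and kinase genes 5 were called higher (3 receptor chains and 2 kinases) and 1 lower, or 62.5% and 12.5%, beside 14.0% and 15.7% of all genes. Ifnar2, the high-affinity chain of the type I receptor, rose from 11.13 ± 0.1 to 11.69 ± 0.08 (limma adjusted p = 0.000503), whereas Ifnar1, its other chain, was at 11.05 ± 0.07 and 10.91 ± 0.03 (limma adjusted p = 0.11). Ifngr1, the ligand-binding chain for interferon gamma, rose from 12.44 ± 0.2 to 13.13 ± 0.13, and Ifngr2 was at 8.57 ± 0.09 and 8.95 ± 0.26 (limma adjusted p = 0.00178 and 0.0533). Il10rb, shared by the receptors for interferon lambda and interleukin 10, rose by 0.81, and the kinase gene Jak2 by 0.36 (limma adjusted p = 5.93e-05 and 0.00232). Jak1 rose by 0.27 and Tyk2 fell by 0.23 (limma adjusted p = 0.0217 and 0.032; both outside the naming rule and chosen after their values were seen). Both lost their calls when single samples were removed, Jak1 for 15, 17, 19 or 20 and also after a second quantile normalization, Tyk2 for any 1 of samples 14 to 20 (highest limma adjusted p 0.107 and 0.0933).

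Interferon genes themselves gave no call: 6 of 11 passed the filter and 0 were called, beside 14.0% higher and 15.7% lower of all genes. Of these 6, 4 had both means below the negative control rows and 2 had 1 mean below. The absence of a call therefore does not show equal levels. Ifnb1, named after its values were seen, was not tested at 4.56 ± 0.18 and 4.63 ± 0.08. Sensing and adaptor genes went both ways, with 4 of 11 called higher and 2 lower (36.4% and 18.2%, beside 14.0% and 15.7% of all genes). Tlr3, the endosomal receptor for double-stranded RNA, rose from 9.27 ± 0.21 to 10.14 ± 0.22, and Tlr4, the receptor for lipopolysaccharide, from 8.37 ± 0.08 to 8.98 ± 0.2. Ikbke, a kinase that activates IRF3 and IRF7, rose by 0.51. Sting1, the adaptor of cytosolic DNA sensing, fell from 10.11 ± 0.17 to 9.24 ± 0.18 (limma adjusted p = 0.000563). The remaining calls, named after their values were seen, were Dhx58, the third RIG-I-like receptor, with a difference of 0.26, and Mavs, the adaptor of RIG-I and MDA5, with -0.27. Each lost its call in 7 of 16 alternatives (limma adjusted p up to 0.0781 and 0.066), and Dhx58 lay below the negative control rows.

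Of 7 STAT and IRF genes besides the members, 0 were called higher and 1 lower (14.3%, beside 15.7% of all genes). The gene called was Irf3, the factor that starts interferon production, at 9.1 ± 0.17 and 8.81 ± 0.07 (limma adjusted p = 0.0442, up to 0.112 and lost in 11 of 17 alternatives). Of 12 negative regulators 2 were called higher and 5 lower (16.7% and 41.7%, beside 14.0% and 15.7% of all genes). Samhd1, which hydrolyses nucleotides and restricts viruses, rose by 0.63, and Socs1, an inhibitor of JAK kinases, rose by 0.48 below the negative control rows. Adar, an RNA editing enzyme that keeps self RNA from activating MDA5, fell by 0.39 (limma adjusted p = 0.00184). Rnaseh2b, a subunit of RNase H2, fell by 0.28 below the negative control rows (limma adjusted p = 0.0133). These 4 genes kept their calls in every alternative. The remaining lower calls, named after their values were seen, did not. Cyld lost its call in 9 of 17 alternatives, Ptpn11 in 7 and Pias1 in 4 (limma adjusted p up to 0.0973, 0.0854 and 0.0682).

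A further 59 tested genes known to be induced by interferon, none of them a member, gave 8 called higher and 18 lower, or 13.6% and 30.5% beside 14.0% and 15.7% of all genes, with a median difference of -0.06 beside -0.01. Among them Ifi27l2a rose from 9.08 ± 0.07 to 9.9 ± 0.14, whereas Ifi27, of the same family of mitochondrial proteins, fell from 11.25 ± 0.18 to 10.15 ± 0.25 (limma adjusted p = 0.000101 and 0.000406). Ifitm2, of the family of Ifitm3, fell by 0.66 and Ly6e, a membrane protein that restricts coronaviruses, by 0.72. Over all pathway lists 19 of 103 tested genes were called higher and 27 lower (18.4% and 26.2%, beside 14.0% and 15.7% of all genes). Without samples 13 and 14 the counts were 24 and 22 (23.3% and 21.4%, beside 14.5% and 17.1% of all genes in that fit). The count of lower ones was 16 without sample 17 (15.5%, beside 12.2% of all genes). It was 14 without sample 19 (13.6%, beside 11.6%) and 17 without sample 20 (16.5%, beside 12.0%).

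**Figure D4:**
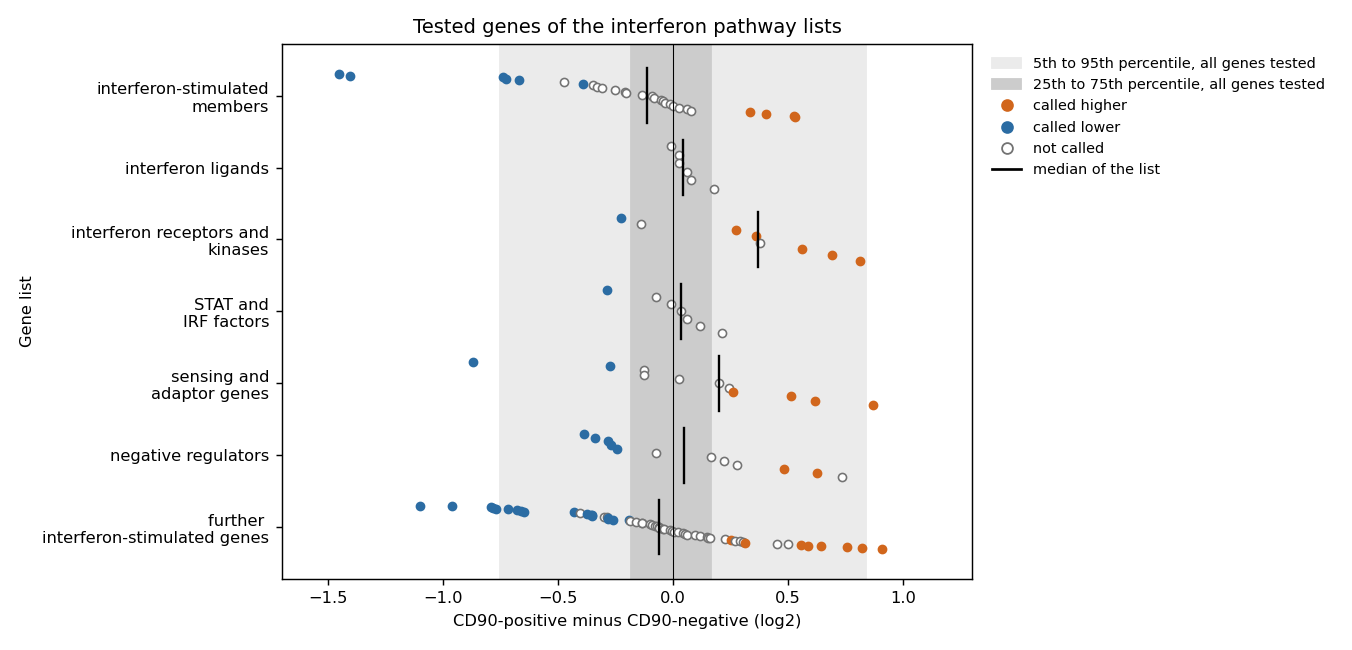
Differences (horizontal axis, log2, CD90-positive minus CD90-negative) of the tested genes of each list (vertical axis); each point is 1 gene, filled where called by limma, black bars are list medians and the grey bands the percentiles of all 17208 tested genes. The receptor and kinase list has its median at 0.37, to the right of the others, and the members and the further interferon-stimulated genes spread to both sides of 0.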

How the data were processed

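RNA of 8 samples was measured on 1-colour Affymetrix mouse transcriptome arrays after amplification of a few nanograms, per the labels' protocols. The authors deposited log2 values per transcript cluster, made with Affymetrix Expression Console 1.1 and RMA per the submitters' processing notes; other settings and the genome build are not given in the sources used here. Values reach 19.85, above the 16 of a 16-bit scan, so a fold is one on the deposited scale. Of 65956 clusters 31252 named 1 gene, 1498 several and 33206 none, after updating names through RefSeq (GRCm38.p6). Clusters reaching 5.36 in at least 4 samples were kept, a gene took its brightest cluster, and 17208 genes were tested with limma 3.58.1 in R 4.3.3 (lmFit, eBayes, two-sided, Benjamini-Hochberg, no block). Tested on simulated data of the same 17208 genes, of which 200 were changed, this comparison's fit recovered 58% of changes of 0.5 (log2), 88% of 1, 100% of 2 and 98% of 3. In the data far more genes were called, 2401 higher and 2694 lower, and the adjusted threshold depends on that share. The recovery rates therefore belong to the simulated setting and need not hold for these data. A fibroblast marker mean without Thy1 was added after seeing the data. Precision is limited by how few arrays there are.

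The members and all lists were chosen with earlier results of these data known. All members were named. From the pathway lists, the up to 4 called genes with the smallest p were named, and the genes of the interferon receptor chains whatever their values. For the cell type lists the rule likewise names up to 4 called genes, and the 3 brightest genes. Called genes were named for the fibroblast, leukocyte, endothelial and plasmacytoid dendritic cell lists. The 3 brightest genes were named for the epithelial list, and Thy1, Pdpn, Epcam, Pecam1 and Ptprc as genes of the sort. For the remaining cell type lists, and for the brightest genes outside the epithelial list, only list means and counts are given. Promoters were to be shown for called members holding the motif.

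No label pairs the samples. Samples with consecutive numbers deviated together (r = 0.285 to 0.449 across genes, the other pairs -0.428 to 0.316; genes are not independent replicates), and 7 of 8 correlated best with their neighbour, a hint from the data and not the design. A fit with that pairing as a block is given as an alternative, beside changes of filter, normalization, variance model, array weights, choice of cluster and samples left out. Plots were drawn with matplotlib 3.10.9.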

Additional observations from a re-analysis of the deposited data

Results flagged for a closer look

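In 3 of 66 groups of 4 samples (33 genes in 2 populations) a single sample stood far from the other 3, about as many as chance gives (1 in 20 groups). Stat2 was at 10.24 in CD90-negative sample 13, with the next at 9.96. Oasl1, which was too dim to test, was at 4.80 in CD90-positive sample 16, with the next at 4.90. Dtx3l was at 7.17 in CD90-positive sample 18, with the next at 7.09. None of the 3 genes was called.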

How the results depend on the processing

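Over 17 alternatives, 8 of the 10 called members kept their call and direction in each; Ifit2 and Ifih1 lost theirs only when single samples were left out. Leaving out 1 sample gave 3 to 4 members higher and 5 to 8 lower (10.7% to 14.3% and 17.9% to 28.6%). It gave 16 to 23 pathway genes higher and 14 to 22 lower (15.5% to 22.3% and 13.6% to 21.4%). Over all genes these fits called 11.1% to 13.8% higher and 11.6% to 16.7% lower. The lower count of members moved from 6 (21.4%) to 12 with array weights (42.9%) and to 10 with the replicate block of consecutive numbers (35.7%). Genes called lower over the whole table went from 2694 (15.7%) to 3887 (22.6%) and 3172 (18.4%). All 10 called members were called under the block too. Of the members not called, 7 gained a call somewhere, all lower: Bst2, Eif2ak2, Ifit3, Irf1, Oasl2, Trim25 and Xaf1; no called member changed direction. The cause of these moves was not tested, except for Irf1, where a second cluster was averaged in. Other scalings moved the median of all differences by -0.0054 (second quantile normalization) and 0.026 (centring). Signals near the negative control rows limit what can be said of Ifit1, Ifit3, Isg15, Mx2, Rsad2, Usp18 and the Oas genes.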
